A study of Arabidopsis thaliana with 12 samples.

Results

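Roots of the Arabidopsis thaliana mutant akt1 were compared with roots of its wild type, ws2, on 3 microarrays of each genotype, chosen by the genotype in the labels, so the comparison uses 6 of the 12 arrays of the series. In the processed signals no probe set separated the genotypes after adjustment for multiple testing. Genes of the plastid genome had mostly lower means in akt1 and the ATG8 genes of autophagy higher means, with no single member past the threshold. AKT1 is a Shaker-type potassium channel in the plasma membrane of root cells that opens at negative membrane voltage and lets potassium in from the soil solution. It is switched on by a protein kinase that calcium sensors recruit to the membrane, and it works beside high-affinity potassium transporters. Plants without it are known to grow poorly where potassium is scarce and ammonium blocks those other transporters.

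The mutant arrays carried RNA of the line akt1-1 (stock N3762) in the Wassilewskija accession, and the control arrays RNA of Wassilewskija itself (stock N1601). The other 6 arrays, 3 each of cngc1 and cngc4, are mutants of cyclic nucleotide-gated channels and entered the fit to estimate the spread. All groups were whole roots at growth stage 3.90, with 20 to 40 plants pooled per sample, from seeds imbibed for 3 to 5 days at 4 °C and plants kept in a growth room at 80% humidity. Whether each replicate was an independent growth is not stated in the labels, and the p-values therefore cover no more than the variation among these arrays. They state no potassium treatment, and akt1-1 is a single line.

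Signals were the authors' deposited values, scaled so that the 2% trimmed mean of each array was about 100, and they were analysed as log2(signal + 16). Of 22746 probe sets that are not controls, 14745 passed a filter on dim signals, being above the 40th percentile of their array on at least 3 of the 12 arrays. Among them 8132 name 1 gene here, and most of these are known only by a locus number, to which no role is given below. No named probe set for AKT1 was analysed here, so the labels were not checked against the targeted gene. Correlations between log2 signals were 0.964 to 0.978 for the 9 pairs of an akt1 with a ws2 array, against 0.958 to 0.977 within akt1 and 0.964 to 0.982 within ws2. Titles of ws2 replicates 2 and 3 carry a repeat mark that no akt1 title carries, and what was repeated is not stated. The 3′ to 5′ signal ratio of one pair of GAPDH control probe sets, a sign of RNA integrity, was 1.03, 1.07 and 1.09 in ws2 and 1.12, 1.19 and 1.12 in akt1, without overlap. A second GAPDH pair overlapped, with 1.26, 1.18 and 1.37 in ws2 and 1.49, 1.70 and 1.33 in akt1. The ratios of one actin pair, 1.53 to 1.94 in ws2 and 1.58 to 2.06 in akt1, and of one ubiquitin pair, 1.41 to 1.62 and 1.44 to 1.68, also overlapped. A second actin pair had higher ratios, 4.92 to 7.35 in ws2 and 5.40 to 6.32 in akt1. A second ubiquitin pair had 2.35 to 2.64 in ws2 and 2.11 to 2.60 in akt1, and both overlapped.

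2 arrays stood apart from the others of their genotype. On akt1 replicate 1, 54 probe sets were over 2-fold higher and 41 over 2-fold lower than on both other akt1 arrays. On ws2 replicate 3 the counts were 40 and 40, and on each of the other 4 arrays at most 12 probe sets differed in this way. Values without single arrays are given beside list medians and counts that they moved by over 1.5 times.

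The first question was whether loss of the channel changed any transcript. By limma with Benjamini-Hochberg adjustment, 0 of 14745 probe sets (0%) passed an adjusted p of 0.05. At an unadjusted p under 0.05 there were 746 (5.06%), where 737 would be reached by chance if no probe set differed. Of these, 351 (2.38%) were higher and 395 (2.68%) lower in akt1. The p-values were spread nearly evenly, with 1397 to 1542 probe sets in each of the 10 bins of equal width. The smallest adjusted p was 0.375, for an unnamed probe set, and the smallest among probe sets that name 1 gene was 0.957.

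The differences were also small in size. The log2 fold changes of akt1 against ws2 had a median of -0.02 and an SD of 0.18, and the middle 95% lay between -0.38 and 0.36. They were negative for 54.0% of the tested probe sets, the share beside which the counts of lower and higher genes in the lists below stand. Against the same ws2 arrays the SD was 0.21 for cngc1 and 0.35 for cngc4. A difference over 2-fold was fitted for 5 probe sets in akt1, 26 in cngc1 and 262 in cngc4; these comparisons share the ws2 arrays, and the difference between the counts was not tested. The design limits what can be said of small effects. The 95% interval of the fold change lay wholly within 2-fold in either direction for 97.9% of probe sets, but within a log2 size of 0.5 for 61.5%.

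**Figure D1:**
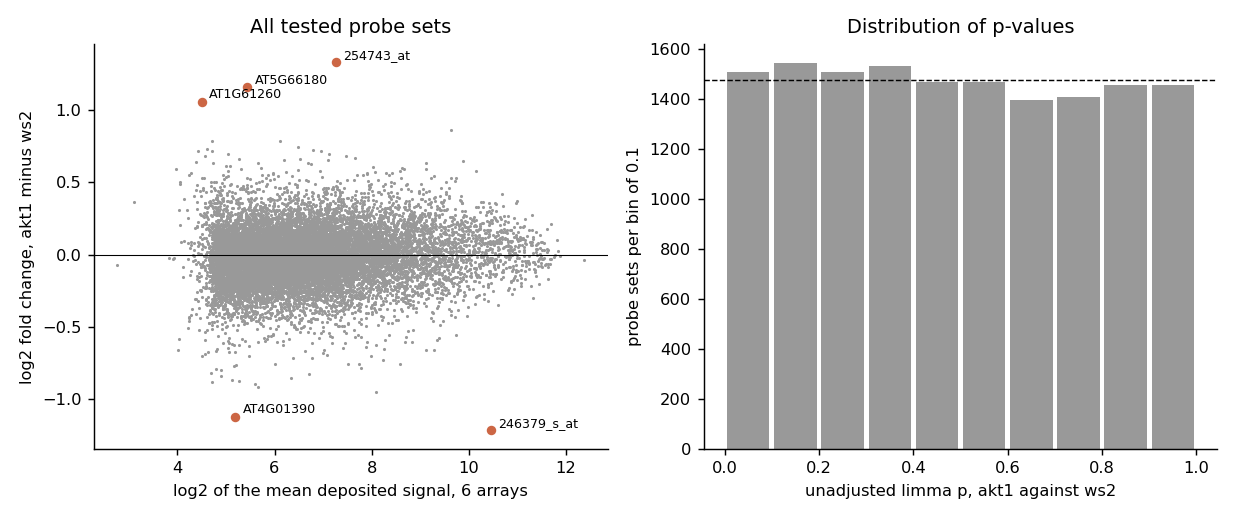
Left, log2 fold change of akt1 against ws2 for each of the 14745 tested probe sets against the log2 mean deposited signal of the 6 arrays, with the 5 probe sets past a 2-fold difference in colour. Right, number of probe sets per bin of 0.1 in the unadjusted limma p, with a dashed line at the mean per bin; the bins hold 1397 to 1542.

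The 5 differences over 2-fold did not all rest on 3 similar akt1 arrays. Probe set 254743_at, which names no gene here, had signals of 81.4, 73.7 and 79.8 in ws2 and 142.7, 232.8 and 317.9 in akt1. Every akt1 array was above every ws2 array, and the log2 fold change was 1.33 (SE 0.22). In cngc1 and cngc4 the same probe set stood at -0.07 and -0.22 against ws2. Set directly against those mutants with the same akt1 arrays, akt1 was higher by 1.39 on the log2 scale than cngc1 (adjusted p = 0.0724 by limma). It was higher by 1.55 than cngc4 (adjusted p = 0.00132 by limma). Probe set 254743_at was picked for its high akt1 values against ws2, so both p-values add no separate evidence. Without akt1 replicate 1, the lowest of the mutant values, its adjusted p against ws2 was 0.00881 by limma, the single call of that fit. Leaving out that array raises the difference by construction, so the call adds no separate evidence to the adjusted p of 0.375 with all arrays. AT1G61260 had 6.7, 10 and 8.8 in ws2 and 17.3, 48.7 and 44.8 in akt1, without overlap but near the dim end of the array (log2 fold change 1.05, SE 0.33).

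AT4G01390 had 66, 64.3 and 31.3 in ws2 and 3.7, 45.6 and 9 in akt1, and the genotypes overlapped through akt1 replicate 2. Probe set 246379_s_at, which names no gene here, had bright signals of 1947.2, 1914.3 and 1651.3 in ws2 and 423.9, 1999.1 and 555.7 in akt1. Akt1 replicate 2 was thus at the wild-type level and the other akt1 arrays were over 2-fold lower, for a log2 fold change of -1.21 (SE 0.59).

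Among the single genes with the smallest p, 15 in each direction were taken whose 3 akt1 arrays all lay beyond all 3 ws2 arrays. Over all probe sets, 645 (4.37%) had every akt1 array above every ws2 array and 779 (5.28%) had every akt1 array below, so separation alone was not unusual. The 15 higher genes had log2 fold changes of 0.43 to 1.15 and unadjusted p of 0.000394 to 0.0028. The 15 lower genes had -0.92 to -0.44 and p of 0.000421 to 0.00345. They were selected on the contrast they are described by, and each had an adjusted p of 0.957 by limma.

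AT3G05950 was the brightest of the higher genes with a difference near 2-fold. It had 602.9, 559.5 and 510.1 in ws2 and 1199.7, 1089.1 and 813 in akt1, and all mutant arrays were above all wild-type arrays (log2 fold change 0.86, SE 0.21). It was also above ws2 in the other mutants, at 1.21 in cngc1 and 1.43 in cngc4, comparisons that share the 3 ws2 arrays. AT2G31490 gave the smallest p of the named genes. Its signals were 438.5, 483.8 and 372.7 in ws2 and 601.3, 787.3 and 647 in akt1 (0.63, SE 0.14), and in cngc1 and cngc4 it stood at 0.37 and 0.17.

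AT5G66180 had the largest difference of the named genes. It had 34.8, 7.6 and 23.4 in ws2 and 63.2, 54.6 and 77.2 in akt1 (1.15, SE 0.27), so its wild-type values were dim and varied more than its mutant values. Its neighbour in RefSeq gene order (assembly TAIR10.1) is STR18, a member of the sulfurtransferase family. STR18 had 154.2, 153.8 and 148 in ws2 and 254, 298.7 and 206.5 in akt1, with all akt1 arrays above (0.67, SE 0.19). Both neighbours were above ws2 in the other mutants too. AT5G66180 stood at 1.48 in cngc1 and 1.87 in cngc4, and STR18 at 0.42 and 1.20, against the shared ws2 arrays.

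DI21, named as drought-induced, had 180.4, 194.4 and 190.7 in ws2 and 260, 362.8 and 246.3 in akt1 (0.56, SE 0.15). The wild-type arrays were close together and below all 3 mutant arrays. In cngc1 and cngc4 it stood at 0.03 and 0.07. AT2G23120 had a similar pattern, with 529.6, 468.7 and 461.5 in ws2 and 675.6, 736.5 and 708.8 in akt1 (0.53, SE 0.13), and it stood at -0.22 in cngc1 and -0.08 in cngc4. Of the 15 higher genes, 11 had the same sign in cngc1 as in akt1, against the same ws2 arrays. Some of this agreement is built in, because the genes were chosen partly for their ws2 values. The higher genes not described above are known here by locus number: AT2G19180, AT2G45860, AT4G19200, AT5G35680, AT4G22560, AT3G57450, AT5G47950, AT4G18400 and AT4G24440.

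Of the 15 lower genes, 4 are encoded in the plastid: psbZ, cemA, rpl22 and psaA, which are described with their complexes below. The one nuclear gene with a symbol was IQD19, of a family of calmodulin-binding proteins with IQ motifs. It had 78.9, 74.3 and 77 in ws2 and 38, 55 and 50.3 in akt1, lower on every mutant array (log2 fold change -0.55, SE 0.14). AT2G18980 was the brightest lower gene, with 398.8, 475 and 279.8 in ws2 and 233.5, 192.4 and 237.4 in akt1 (-0.73, SE 0.20). It stood at -0.61 in cngc1 and -1.14 in cngc4 against the same ws2 arrays.

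AT3G27950 had 120.2, 126.8 and 79.2 in ws2 and 62.8, 39.3 and 56.3 in akt1 (-0.85, SE 0.19). AT4G04630, with 41.7, 38.5 and 46.4 in ws2, was at 12.4, 27.1 and 11.9 in akt1 (-0.84, SE 0.19), where it was among the dim probe sets. The other lower genes, AT1G71710, AT1G33612, AT5G25240, AT2G07724, AT3G07180, AT5G27510 and AT3G07210, are known here by locus number. Of all 15 lower genes, 12 had the same sign in cngc1, against the same ws2 arrays. Since the genes were chosen partly for their ws2 values, some agreement in sign is built in.

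**Figure D2:**
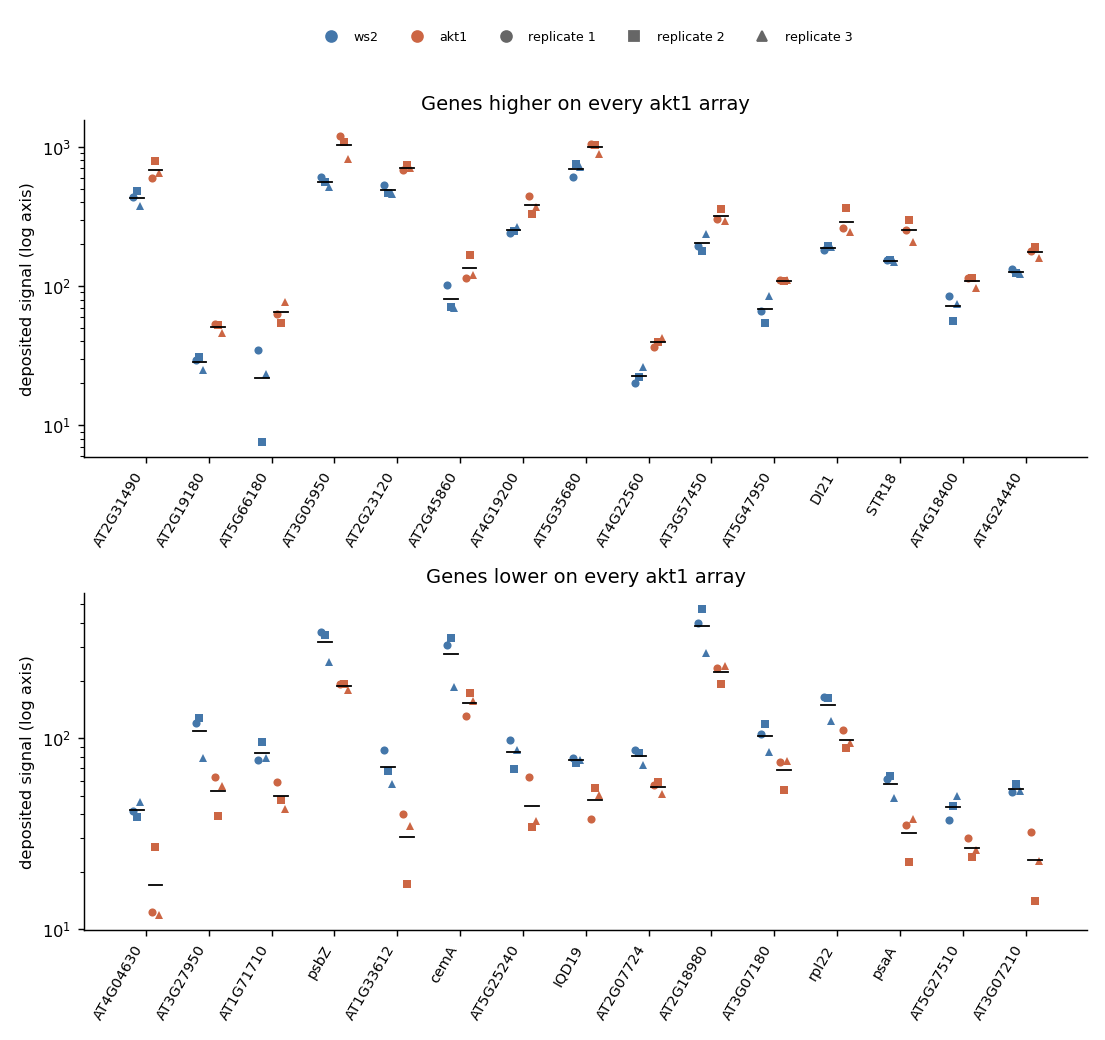
Deposited signal (log axis) on each of the 3 ws2 and 3 akt1 arrays for the 15 genes of smallest p that were higher and the 15 that were lower on every akt1 array; symbols mark replicates and short lines the group means. The genes were chosen for this separation, and AT3G05950 reaches the highest signal of them, 1199.7 on akt1 replicate 1.

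Since few of these genes carry a symbol, the nuclear genes that do were listed further down the same ranking, a step added after the values were seen. The next higher genes included SRX, the sulfiredoxin that repairs overoxidised peroxiredoxins, with 126.6, 123.1 and 160.9 in ws2 and 164, 229.8 and 179.8 in akt1 (0.43, SE 0.15). GRXC1, a glutaredoxin, had 118.2, 84.9 and 121.9 in ws2 and 154.6, 169.9 and 128.5 in akt1 (0.43, SE 0.16). All akt1 arrays were above all ws2 arrays for both redox proteins, by a narrow margin. UGT76C2, a glucosyltransferase that inactivates cytokinins, had 55.8, 41.7 and 15.3 in ws2 and 56.3, 57.6 and 74.8 in akt1 (0.63, SE 0.24), where ws2 replicate 3 was far below the rest. CYS1, a cysteine protease inhibitor (0.42, SE 0.17), NRPB12, an RNA polymerase subunit (0.39, SE 0.15), LSM6A of the RNA-binding LSM complexes (0.45, SE 0.16), LPA19, a photosystem II assembly factor (0.46, SE 0.14), and PEP, an RNA-binding protein of the KH type (0.38, SE 0.14), were higher by similar amounts.

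On the lower side, TBL19, of the family that acetylates wall polysaccharides, had 56.3, 55.5 and 62.6 in ws2 and 35.7, 43.1 and 40.7 in akt1 (-0.41, SE 0.13). MED31, a Mediator subunit of the transcription machinery, had 87.6, 94.8 and 91 in ws2 and 69.1, 55.6 and 74.8 in akt1 (-0.38, SE 0.12). The ws2 arrays were close together and above every akt1 array for both. HCF101, an iron-sulfur carrier needed for photosystem I, was dim, with 27.8, 30.4 and 35.7 in ws2 and 6, 19.5 and 23.2 in akt1 (-0.59, SE 0.20). SDH1-1, the flavoprotein of mitochondrial succinate dehydrogenase, had 457, 405 and 381.5 in ws2 and 312.2, 337.7 and 336.1 in akt1 (-0.32, SE 0.12). ALDH11A3, an aldehyde dehydrogenase (-0.47, SE 0.15), ATJ1, a DnaJ-type chaperone (-0.41, SE 0.14), the F-box protein HWS (-0.37, SE 0.12), the ubiquitin protease UBP25 (-0.38, SE 0.15) and the ubiquitin ligase PUB23 (-0.34, SE 0.14) completed the list. None of these genes passed the adjusted threshold, each with an adjusted p of 0.957 by limma.

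Of the lists with 3 or more tested genes, the plastid genome had the lowest median. Roots hold non-green plastids, whose genomes encode parts of the photosynthetic complexes and of the plastid's own gene expression machinery. Of 69 named plastid genes on the array, 62 were tested, and 58 had a lower and 4 a higher mean in akt1. Over all tested probe sets 54.0% were lower. Their median log2 fold change was -0.29, against -0.02 over all probe sets. None passed the adjusted threshold. At an unadjusted p under 0.05, 14 were lower (2.68% of all probe sets were) and 0 higher, and 12 had every akt1 array below every ws2 array (5.28% of all probe sets did). The 14 became 6 without ws2 replicate 2, 8 without ws2 replicate 1, 9 without akt1 replicate 3 and 23 without ws2 replicate 3. Over all 14745 probe sets the lower count also moved, from 395 with all arrays to 211, 335, 567 and 576 in these fits, in that order. Genes of one genome share their organelle and are not replicates of each other.

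The per-array medians of these 62 genes show how far the genotypes lay apart. The median log2(signal + 16) was 7.50, 7.64 and 7.28 in ws2 and 7.30, 7.33 and 7.09 in akt1. The wild-type replicate 3, one of the arrays that stood apart, was below both other wild-type arrays and within the range of akt1. The sum of the deposited signals was 22426.5, 22153.5 and 16972 in ws2 and 17140.5, 19547.2 and 16233 in akt1, and it overlapped likewise. In bulk roots, fewer plastid-rich cells and less plastid RNA per cell cannot be told apart.

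By complex, all 8 groups had negative medians. The 5 ATP synthase genes had a median of -0.38, and atpB, the beta subunit, had 1273.2, 1210.3 and 959.3 in ws2 and 813.3, 778.9 and 952.9 in akt1 (-0.42, SE 0.14). The third arrays of both genotypes nearly met for atpB, with the other akt1 arrays well below. The 8 genes of the NADH dehydrogenase-like complex, which passes electrons to plastoquinone, were all lower, with a median of -0.37. Among them ndhE had 66.4, 70.1 and 69.2 in ws2 and 54, 47.2 and 44.5 in akt1 (-0.39, SE 0.16).

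The 5 photosystem I genes had a median of -0.35. For the reaction centre protein psaA the signals were 61, 63.1 and 48.7 in ws2 and 35.1, 22.4 and 37.9 in akt1 (-0.63, SE 0.18), and for the iron-sulfur subunit psaC they were 103.6, 103.7 and 66.2 against 65.7, 55.8 and 38.5 (-0.63, SE 0.23). Both separated the genotypes, psaC by a narrow margin, while psaJ did not differ in its mean (0.00, SE 0.21). The assembly factor of the same photosystem, ycf4, had 145.5, 195.5 and 135.7 in ws2 and 55.8, 124.6 and 108.1 in akt1 (-0.68, SE 0.22).

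The 14 photosystem II genes had a median of -0.34. The small subunit psbZ had 359.1, 348.3 and 249.3 in ws2 and 192, 192.9 and 178.2 in akt1 (-0.70, SE 0.17), the clearest separation of the plastid genes. In contrast psbA, which encodes the D1 reaction centre protein, had 547, 473.9 and 334.5 in ws2 and 497.4, 412 and 274.3 in akt1 (-0.20, SE 0.31) and overlapped. The brightest gene of the complex, psbM, had a fold change of 0.10 (SE 0.28).

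The 5 cytochrome b6f genes had a median of -0.25, and petA, which encodes cytochrome f, had 398.7, 471.1 and 394.3 in ws2 and 240.9, 336.1 and 343.1 in akt1 (-0.45, SE 0.18). The 14 ribosomal protein genes had a median of -0.23 and ran from rpl22 (-0.54, SE 0.15) to rps18 (0.23, SE 0.25). For rpl22 the signals were 164.7, 162.2 and 122.6 in ws2 and 109.7, 89.2 and 94 in akt1, without overlap. The 3 plastid RNA polymerase genes had a median of -0.15 and overlapped.

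The 8 other plastid genes had a median of -0.20. Among them the envelope membrane protein cemA had 308.7, 333.4 and 186.2 in ws2 and 131.3, 173 and 155.6 in akt1 (-0.75, SE 0.19). All akt1 arrays were below all ws2 arrays, and ws2 replicate 3 was the nearest. The large Rubisco subunit rbcL (-0.18, SE 0.13) and the protease subunit clpP (0.14, SE 0.15) overlapped.

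**Figure D3:**
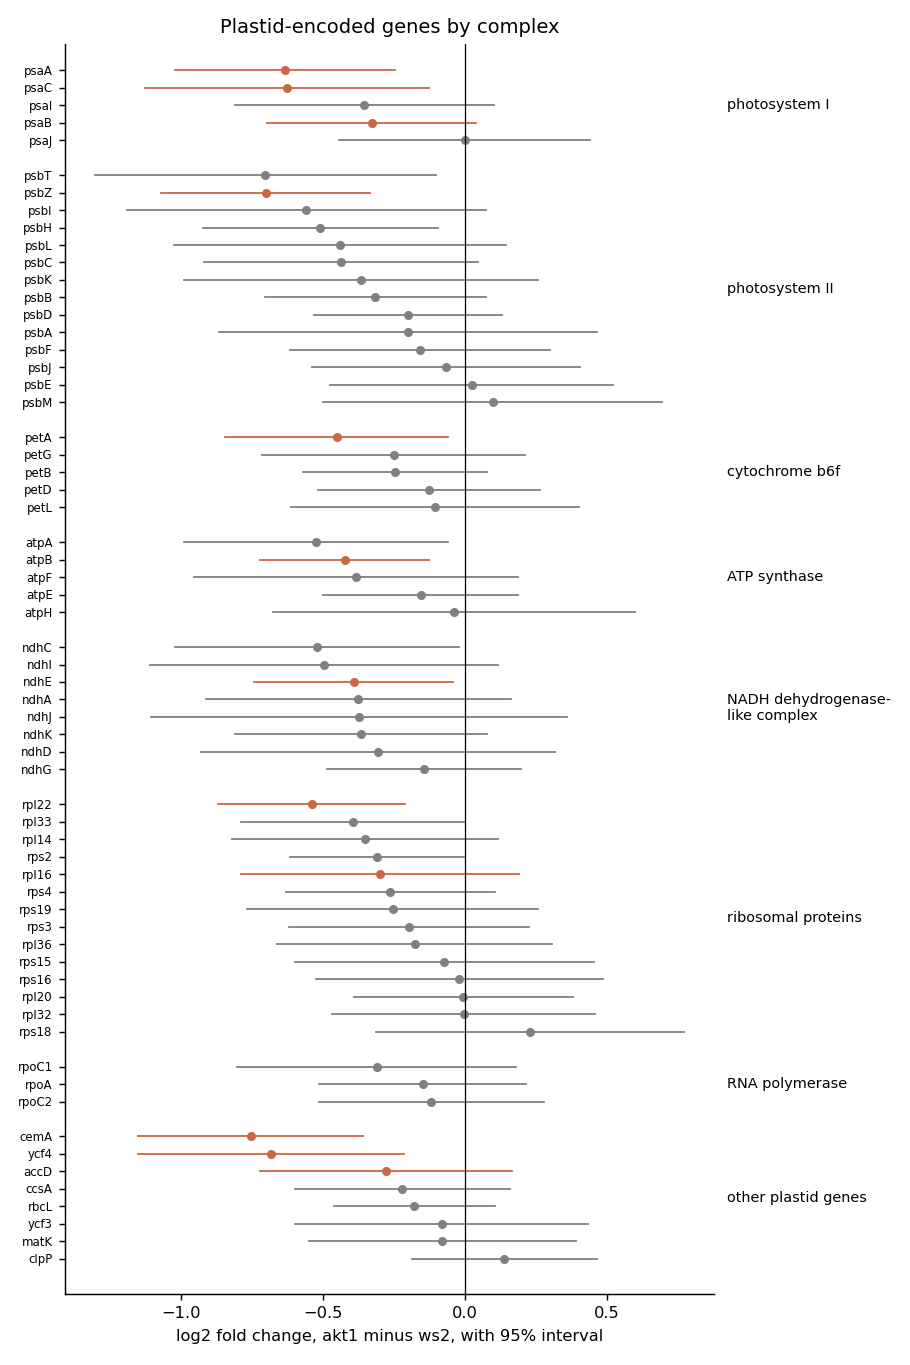
Log2 fold change of akt1 against ws2 with its 95% interval from limma for the 62 tested plastid-encoded genes, grouped by complex; colour marks the 12 genes whose akt1 arrays all lay below all ws2 arrays. Points lie left of zero for 58 genes, and most intervals cross zero.

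Nuclear genes of photosynthesis were on the same side as the plastid genes. Of 12 tested, 10 were lower in akt1 and 2 higher, with a median of -0.26. RCA, the Rubisco activase, had 155.6, 162.2 and 92.2 in ws2 and 113.4, 78.4 and 71.4 in akt1 (-0.54, SE 0.24), and PSBW of photosystem II had 153.9, 207.8 and 94.7 against 98.5, 100.2 and 103.7 (-0.47, SE 0.27). Both overlapped through ws2 replicate 3. All 12 overlapped between the genotypes, and 1 was lower at an unadjusted p under 0.05, as were 395 of all 14745 probe sets (2.68%). Leaving out ws2 replicate 3 gave a median of -0.40 with 4 at that p, where 576 of all probe sets were lower. The count was 0 without akt1 replicate 2, akt1 replicate 3, ws2 replicate 1 or ws2 replicate 2. Over all probe sets, 276, 567, 335 and 211 were lower in these fits, in that order. Leaving out ws2 replicate 2 gave a median of -0.12. The 10 shoot markers, all members of the same list, had a median of -0.25. The 12 mitochondrial genes, the other organelle genome, had a median of -0.09, with 5 higher and 7 lower, and it was -0.05 without akt1 replicate 2, -0.01 without ws2 replicate 1 and -0.004 without akt1 replicate 3.

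The size of the plastid difference varied with how the repeat mark was treated. Without ws2 replicate 3, 59 of the 62 genes were lower and the median was -0.38. Without all repeat-marked arrays, which leaves ws2 with 1 array, it was -0.44, and -0.55 when the mark was fitted as a covariate. Without akt1 replicate 1, 52 were lower, with a median of -0.30, and without both arrays that stood apart 57 were lower, with a median of -0.41. Other single arrays made the difference smaller, with a median of -0.22 and 49 genes lower without ws2 replicate 1, and -0.24 without ws2 replicate 2 or without akt1 replicate 3. One of the GAPDH ratios given above separated the genotypes and the other control ratios overlapped. The part of the mark and of RNA integrity in the plastid result was not tested.

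Set against the other mutants, akt1 was on the low side as well. Compared with cngc1, 52 of the 62 plastid genes were lower in akt1 with a median of -0.26, and 0 passed the adjusted threshold, where 1 of all probe sets (0.00678%) did. Compared with cngc4, all 62 were lower with a median of -0.73, and 32 passed, against 670 of all probe sets lower in akt1 (4.54%). The plastid median of cngc4 against ws2 was 0.46 and that of cngc1 was 0.02. These comparisons share the akt1 or the ws2 arrays with the main one.

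In the other direction, the ATG8 genes stood together. ATG8 proteins are ubiquitin-like proteins that are attached to the membrane of the growing autophagosome, the vesicle in which cells recycle their own contents. All 9 tested were higher in akt1, at 0.11 to 0.34, with a median of 0.21. APG8A had 604, 459.6 and 671.7 in ws2 and 664.3, 802.5 and 716.6 in akt1 (0.34, SE 0.16), and APG8H had 636.2, 552.7 and 812.2 against 812.9, 870.1 and 789.4 (0.32, SE 0.15). ATG8E, with 496.4, 337.5 and 525.3 in ws2 and 430.5, 592.1 and 434.9 in akt1, differed least (0.11, SE 0.20). All 9 overlapped between the genotypes and 1 had an unadjusted p under 0.05, a count that was 4 without akt1 replicate 1 and 3 without ws2 replicate 3. The count was 0 without akt1 replicate 2, without akt1 replicate 3 and without ws2 replicate 2. Over all 14745 probe sets, 351 (2.38%) were higher at that p with all arrays, 512 without akt1 replicate 1 and 451 without ws2 replicate 3. In the fits with a count of 0 they were 214, 418 and 257, in that order.

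For most of these genes ws2 replicate 2 was the lowest and akt1 replicate 2 the highest array. Without akt1 replicate 2 the ATG8 median was 0.11, with 7 of 9 higher, and without akt1 replicate 1 it was 0.36. Without ws2 replicate 2 it was 0.14, with 8 of 9 higher, and without both arrays that stood apart it was 0.45. Against the same ws2 arrays the ATG8 median was -0.03 in cngc1 and 0.14 in cngc4. Compared with cngc1, all 9 were higher in akt1, with a median of 0.22. Compared with cngc4, 6 were higher and 3 lower, with a median of 0.12, and 0 passed the adjusted threshold in either comparison. The ATG8 genes are similar in sequence, and probes may share signal between them. ATG3, which conjugates ATG8 to lipid, was the one other autophagy gene tested and stood at 0.07 (SE 0.12).

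Genes for RALF-like peptides, small secreted peptides that are sensed by receptor kinases at the cell surface and alkalinise the wall, were also on the higher side. Of 7 tested, 6 were higher and 1 lower in akt1, with a median of 0.30. RALFL33 had 269.1, 211.5 and 362.4 in ws2 and 355.1, 448.7 and 364.8 in akt1 (0.47, SE 0.19). RALFL32 had 536.6, 510.8 and 491.6 in ws2 and 696.2, 791.8 and 519.6 in akt1 (0.35, SE 0.14). Each of these overlapped by a single array, and both had an unadjusted p under 0.05, as had 351 of all 14745 probe sets (2.38%) on the higher side. RALFL22, the brightest, had 742.9, 664.1 and 1342.4 in ws2 and 1272.9, 1037.6 and 881.7 in akt1 (0.27, SE 0.24), with ws2 replicate 3 the highest of all. Without akt1 replicate 2 the median was 0.14, and 0 of the 7 had an unadjusted p under 0.05 then or without ws2 replicate 2. Over all probe sets, 214 and 257 were higher at that p in these fits, in that order. Without akt1 replicate 1 the count was 1, where 512 of all probe sets were higher.

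Genes of the cell wall did not move as one. Xyloglucan endotransglucosylases cut and rejoin the xyloglucan that links cellulose, and 6 of 9 tested were higher, with a median of 0.24. XTH19 had 180.5, 177.3 and 134.8 in ws2 and 196.1, 231.5 and 221.4 in akt1, above on every array (0.37, SE 0.17). XTH18 had 202.8, 159.1 and 245.8 in ws2 and 234.8, 271.9 and 359.7 in akt1 (0.48, SE 0.21) and overlapped through one array of each genotype. The median was 0.10 when the repeat mark was fitted as a covariate, and also 0.10 without ws2 replicate 1, while it was 0.13 without ws2 replicate 3 and 0.16 without akt1 replicate 2.

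Expansins, which loosen the wall during growth, were on the other side, with 11 of 13 lower and a median of -0.10. This median was 0.01 when the repeat mark was fitted, -0.20 without akt1 replicate 1 and -0.18 without akt1 replicate 3. The number of lower expansins was 6 when the repeat mark was fitted, and 8 to 10 when each array was left out in turn. EXPB2 had 518.3, 533.8 and 472.3 in ws2 and 320.4, 340.3 and 381.2 in akt1 (-0.53, SE 0.27), lower on every akt1 array, and EXPA8 had 44.2, 61.7 and 49.8 against 41.1, 39 and 36 (-0.30, SE 0.26). The SE takes in the spread of these genes in all 4 genotypes. Of 36 tested genes of the secondary wall and of wall acetylation, 29 were lower, and 7 higher, with a median of -0.08 that was -0.05 without akt1 replicate 1 and -0.04 without akt1 replicate 2. TBL41 was among the higher ones, with 46.5, 24.3 and 43.3 in ws2 and 50.4, 51.4 and 58.8 in akt1 (0.39, SE 0.17), opposite to TBL19.

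Root hair genes varied more within than between the genotypes. EXPA7, a root hair expansin, had 86.2, 144.4 and 265.6 in ws2 and 172, 96.9 and 122.4 in akt1 (-0.22, SE 0.28). EXPA18, also of root hairs, had 199.2, 157.4 and 342.9 in ws2 and 293, 155.7 and 200.1 in akt1 (-0.07, SE 0.25). In each case ws2 replicate 3 was the highest array and akt1 replicate 1 came next. XTH26 had 49.2, 36.6 and 176 in ws2 and 206.9, 84 and 115.9 in akt1 (0.72, SE 0.49), again with the highest value of each genotype on those 2 arrays. The xylem marker GUT2 (-0.28, SE 0.17) and the phloem marker SWEET11 (-0.11, SE 0.14) overlapped between the genotypes.

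**Figure D4:**
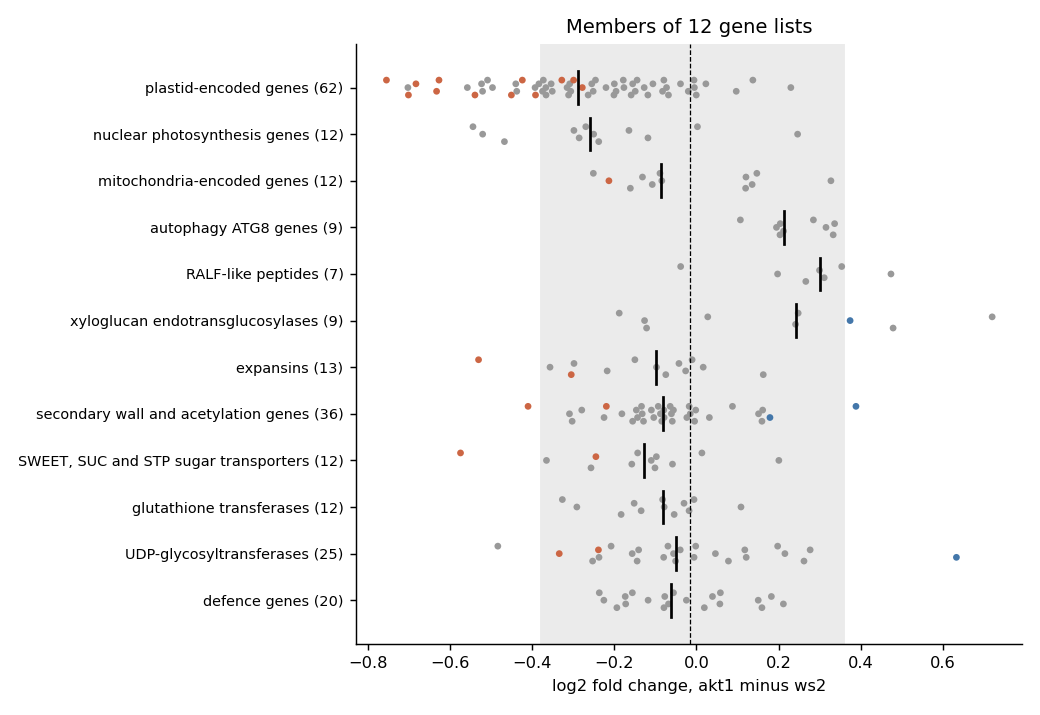
Log2 fold change of akt1 against ws2 for the tested members of 12 gene lists, with the number tested in brackets, a black line at each median, a grey band over the middle 95% of all tested probe sets and a dashed line at their median. Colour marks members whose genotypes do not overlap, blue for higher and orange for lower in akt1; the medians run from -0.29 for the plastid genes to 0.30 for the RALF-like peptides.

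Genes of transport gave little to compare. Of the 7 genes named on the array from the families of potassium transporters and channels, 0 passed the filter on dim signals, so the response of other potassium uptake genes is not described here. Sugar transporters had 2 of 12 higher and 10 lower, with a median of -0.13 that was -0.23 without ws2 replicate 1 and -0.20 without akt1 replicate 3. TMT3, a sugar transporter of the vacuolar membrane, had 38.1, 41.4 and 49.7 in ws2 and 22.4, 16 and 34.3 in akt1 (-0.57, SE 0.31), and SWEET13, a sucrose exporter, had 73.3, 82 and 69.9 against 65.2, 59.4 and 57.8 (-0.24, SE 0.15). Both were lower on every akt1 array, and TMT3 was dim.

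The 3 tested genes of the vacuolar-type proton pump encode isoforms of its membrane-embedded subunit a. VHA-A2 had 212, 207.5 and 189.8 in ws2 and 175, 141.4 and 189.5 in akt1 (-0.25, SE 0.14), and VHA-A1 had 162, 173.9 and 145.8 against 145, 138.1 and 141.6 (-0.16, SE 0.12). Both were lower on every akt1 array, by under 1 signal unit at the closest arrays. VHA-A3, the brightest isoform, did not differ in its mean (-0.01, SE 0.14). Of 6 dehydration and abscisic acid genes, DI21 was described above. DI19, a zinc finger protein named for drought induction, had 926, 1235.1 and 1172.4 in ws2 and 1485.2, 1547.1 and 1165.3 in akt1 (0.33, SE 0.16) and overlapped. The cold-regulated COR15B was lower on every akt1 array (-0.23, SE 0.14).

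Other families had small negative medians of -0.09 to -0.05, against -0.02 over all probe sets, of which 54.0% were lower in akt1. Glutathione transferases had 1 of 12 higher and 11 lower, with a median of -0.08. UDP-glycosyltransferases had 9 of 25 higher and 16 lower (-0.05), serine carboxypeptidase-like genes 5 of 17 higher and 12 lower (-0.09), and defence genes 8 of 20 higher and 12 lower (-0.06). Tubulin and actin genes had 2 of 11 higher and 9 lower (-0.05), and genes of mitosis and DNA replication 3 of 11 higher and 8 lower (-0.08). Single arrays moved these small medians. That of the glutathione transferases was -0.16 without akt1 replicate 1 and -0.13 without akt1 replicate 2, and that of the serine carboxypeptidase-like genes was -0.17 without akt1 replicate 2. The median of the mitosis and replication genes was -0.18 without ws2 replicate 3, -0.04 when akt1 replicate 1, -0.01 when ws2 replicate 1 and -0.02 when ws2 replicate 2 was left out. For defence genes it was -0.02 when akt1 replicate 3 was left out and -0.03 when ws2 replicate 2 was. For tubulin and actin genes it was -0.12 when akt1 replicate 3, -0.10 when ws2 replicate 2 and -0.08 when ws2 replicate 3 was left out. For UDP-glycosyltransferases it was -0.02 to -0.03 when akt1 replicate 2 or 3 or ws2 replicate 1 or 3 was left out. Among the tubulin and actin genes ACT11 was lower on every akt1 array, with 143.8, 204.2 and 151.6 in ws2 and 141.5, 104 and 132.3 in akt1 (-0.36, SE 0.18).

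Some genes differed more among the akt1 arrays than between the genotypes. On akt1 replicate 1, PDC2, a pyruvate decarboxylase that starts ethanol fermentation, was at 412.9, against 109.3 and 102.6 on the other akt1 arrays and 159, 173.2 and 251.1 in ws2. GAT1_2.1, an amidotransferase-like protein, was at 169.5 on that array and at 38.9 and 36.5 on the others, with 130.6, 138.4 and 115.7 in ws2. For both genes the wild-type values lay between the akt1 values, so the genotype means say little (-0.16, SE 0.37 for PDC2 and -0.83, SE 0.58 for GAT1_2.1).

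The calmodulin-like CML38 had 121.9 on akt1 replicate 1 and 46.3 and 31.3 on the others, with 43.4, 36.8 and 29.5 in ws2. OSM34, an osmotin of the pathogenesis-related proteins, had 3707.1, 1564.1 and 1425 in akt1 and 1987.3, 1951.3 and 1713.6 in ws2. ICL, the isocitrate lyase of the glyoxylate cycle, had 50, 12.9 and 4.8 in akt1 and 40.7, 40.3 and 59.7 in ws2, so that here replicate 1 was the akt1 array at the wild-type level. The transcription factor NAI1, which is needed for endoplasmic reticulum bodies, was low on replicate 1, with 59.5, 179.9 and 165.6 in akt1 and 127.2, 114.9 and 120 in ws2. In cngc4 the mean signals of PDC2, GAT1_2.1 and CML38 were 327, 862 and 71.7, above the ws2 mean in each case.

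**Figure D5:**
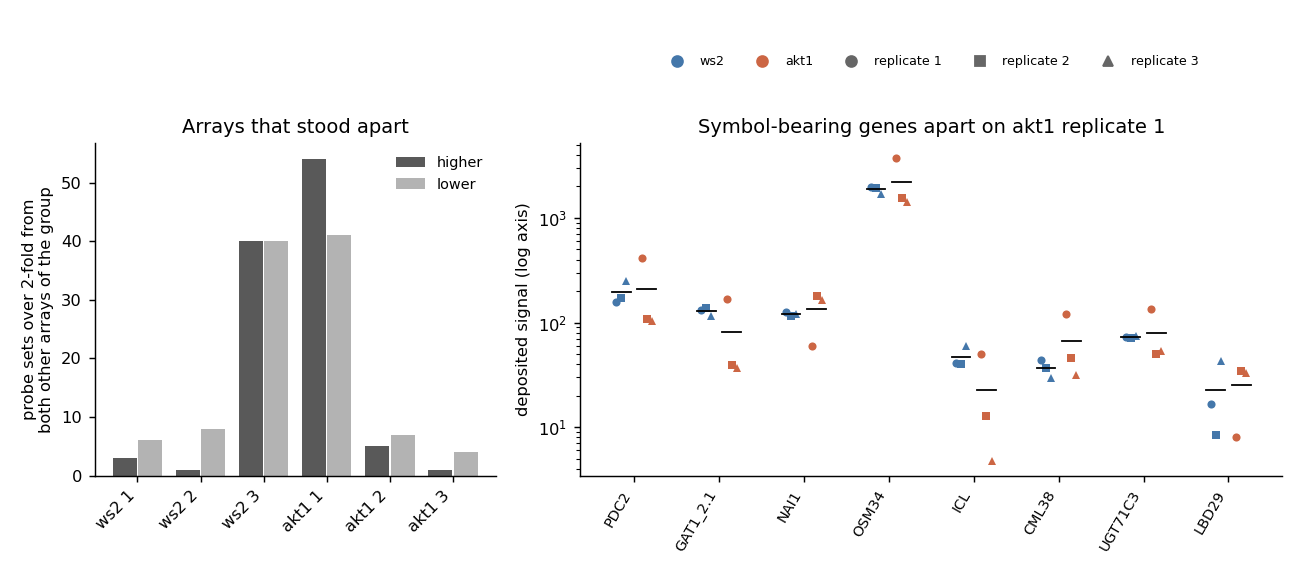
Left, number of probe sets on each ws2 and akt1 array that were over 2-fold higher or lower, on log2(signal + 16), than on both other arrays of the genotype. Right, deposited signal (log axis) of the 8 genes with a symbol that stood apart on akt1 replicate 1, with replicates as symbols and group means as lines; PDC2 is at 412.9 on that array and at 109.3 and 102.6 on the other akt1 arrays.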

How the data were processed

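Roots of akt1 and ws2 were hybridised to ATH1 arrays, and the deposited signal intensity per probe set is on a linear scale with a 2% trimmed mean near 100 on each array, as the values show; which software made it is not given in the labels or file used. Control probe sets (64) were left out, 16 was added to each intensity and log2 was taken, with no further normalization. The 4 group means over all 12 arrays were fitted with limma 3.58.1 (R 4.3.3), with a mean-variance trend, two-sided tests and Benjamini-Hochberg adjustment over 14745 probe sets. The script was tested on simulated data. Gene names came from the platform annotation, and 13436 of 13513 probe sets with 1 gene matched the RefSeq gene table (TAIR10.1). For genes with several probe sets the brightest was named.

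The text names the 15 genes of smallest p per direction whose genotypes do not overlap, up to 2 unnamed probe sets per direction, differences over 2-fold, members of gene lists (up to 4 by smallest p, all members of lists of 10 or fewer, and some chosen after their values were seen), genes with a symbol (up to 10 per direction) and genes apart on 1 array, the last 2 rules added after values were seen. The comparison and the lists were chosen with earlier results of these data known. Misassigned symbols were removed from the lists. A set of 3 against 3 arrays allows no exact permutation p below 0.1, so the fit across all probe sets was used. Plots were drawn with matplotlib 3.10.9.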

Additional observations from a re-analysis of the deposited data

How the results depend on the processing

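The count of probe sets past the adjusted threshold was 0 under most of the 21 alternative settings (normalization, offset, filter, variance model, covariates, arrays left out), and it was 1, probe set 254743_at each time, with array weights and with the akt1 and ws2 arrays most apart left out together, a setting chosen after seeing the data. Leaving out each akt1 and ws2 replicate in turn gave 0 to 1. At an unadjusted p under 0.05 with at least a 2-fold change there were 4. The count at an unadjusted p under 0.05 was 408 with the repeat mark as a covariate, 407 without the repeat-marked arrays, 1252 with the arrays most apart left out, and 468 to 1027 when leaving out each replicate in turn. The share of these that were higher ranged from 41.7% to 54.9%. Replicate numbers did not pair the samples: deviations of same-numbered akt1 and ws2 arrays from their group means correlated at -0.12 to 0.01. With a replicate block the counts were 0 past the adjusted threshold and 775 at an unadjusted p under 0.05. All 47 named probe sets kept their sign in 976 alternative values, and none passed the adjusted threshold. They had been chosen because every akt1 array lay beyond every ws2 array. Leaving out arrays could therefore not change their sign, and the kept signs are no separate evidence. Of 630 alternative list medians, 13 moved by more than the spread between arrays. Where one array remained in a group, its spread was taken from the other groups. With 3 arrays per genotype, differences well above a log2 size of 0.5 could also miss the adjusted threshold. Probe set 254743_at, at a log2 fold change of 1.33 without overlap, had an adjusted p of 0.375 by limma, and AT5G66180, at 1.15, had 0.957. The results do not settle whether differences under a log2 size of about 0.5 exist.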
